A study of Homo sapiens with 6 samples.

Results

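Eosinophils, basophils and mast cells store ready-made proteins in cytoplasmic granules. Here 10 genes grouped with such granule contents were read in a human leukaemia line. They were taken by gene symbol: PRG2, PRG3, EPX, CLC, RNASE2 and RNASE3 of eosinophils, and TPSAB1, TPSB2, CPA3 and HDC of mast cells and basophils. All 10 were among the 43424 symbols of the count files. HL-60 is an acute myeloid leukaemia line with promyelocyte features. The line had been kept for 6 months either with CIP, an extract of Corydalis incisa (Thunb.) Pers. raised from 2 to 20 µg/ml, or with DMSO. The series calls the CIP cells resistant, gives both groups as genotype WT, and asks which genes take part in CIP-induced differentiation. Each label was given to 3 libraries, made with QuantSeq, which reads the polyadenylated end of each transcript. Whether replicates came from different cultures is not in the labels. The p-values therefore rest on a spread that may be technical.

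In a maturing eosinophil the granule proteins are made early and packed at the myelocyte stage. The crystalline core is built from major basic protein (PRG2), and the matrix around it holds eosinophil peroxidase (EPX) and a pair of ribonucleases, RNASE2 (eosinophil-derived neurotoxin) and RNASE3 (eosinophil cationic protein). RNASE2 and RNASE3 are also made by other myeloid cells, so they are less specific than EPX. CLC encodes galectin-10, the protein of Charcot-Leyden crystals, which basophils make too. Mast cells store tryptases and carboxypeptidase A3, bound to serglycin proteoglycan, with the histamine that the decarboxylase HDC makes. GATA and C/EBP transcription factors are known to drive these lineages.

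Sequences before the transcription start were at hand for 6 of the 10 genes (RefSeq, GRCh38.p14, 250 bases before to 50 after the start). Those of the RNase pair are shown because the genes are near copies that moved together to different degrees. Capitals mark the match to the C/EBP word TTNNGNAA, read on both strands. The windows are chr14:20955237-20955536 for RNASE2 and chr14:20891135-20891434 for RNASE3, both on the plus strand.
RNASE2: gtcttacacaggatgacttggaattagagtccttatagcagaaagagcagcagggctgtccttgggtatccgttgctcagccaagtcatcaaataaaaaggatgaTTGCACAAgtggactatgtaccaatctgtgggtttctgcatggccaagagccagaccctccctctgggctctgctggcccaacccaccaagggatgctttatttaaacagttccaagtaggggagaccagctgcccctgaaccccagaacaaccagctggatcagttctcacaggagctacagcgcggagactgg
RNASE3: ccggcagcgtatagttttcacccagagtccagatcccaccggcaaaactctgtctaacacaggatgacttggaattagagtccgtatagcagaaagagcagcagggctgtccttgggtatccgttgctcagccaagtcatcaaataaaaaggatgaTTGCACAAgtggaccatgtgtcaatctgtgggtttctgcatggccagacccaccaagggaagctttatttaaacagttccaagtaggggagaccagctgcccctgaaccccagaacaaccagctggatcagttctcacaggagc

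Over 249 aligned bases, with gaps left out, these windows were 97.2% identical, and both held the word TTGCACAA. Between that word and the start, RNASE2 has a stretch that RNASE3 lacks. Counted from the start, the word lies at -145 to -138 in RNASE2 and at -94 to -87 in RNASE3. Of all 27305 promoters of this length 37.2% held a C/EBP match. The windows of CLC (chr19:39737980-39738279, minus strand) and CPA3 (chr3:148865046-148865345, plus strand) are shown because reads of both genes came from the CIP-labelled libraries only and each window held more than 1 GATA word. Here capitals mark the word AGATAA, the word AGATAG, the word TGATAA and the word TGATAG on either strand, and 25.5% of all promoters hold at least 1.
CLC: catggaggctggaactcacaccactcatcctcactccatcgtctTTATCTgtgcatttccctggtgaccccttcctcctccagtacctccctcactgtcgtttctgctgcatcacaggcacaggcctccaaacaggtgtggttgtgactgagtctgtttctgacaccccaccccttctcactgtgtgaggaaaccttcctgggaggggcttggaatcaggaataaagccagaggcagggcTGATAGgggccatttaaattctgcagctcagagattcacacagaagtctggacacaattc
CPA3: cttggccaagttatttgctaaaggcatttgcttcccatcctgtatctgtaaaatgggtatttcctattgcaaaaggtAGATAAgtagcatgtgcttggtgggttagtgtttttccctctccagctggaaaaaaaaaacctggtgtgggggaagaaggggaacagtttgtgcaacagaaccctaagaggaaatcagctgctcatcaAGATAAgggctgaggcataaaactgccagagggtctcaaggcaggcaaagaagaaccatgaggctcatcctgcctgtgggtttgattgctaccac

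CLC and CPA3 held 2 GATA matches each and PRG3 held 1, while RNASE2, RNASE3 and HDC held 0. C/EBP matches were found in 4 of the 6 windows. CPA3 held 3 of them, PRG3, RNASE2 and RNASE3 held 1 each, and CLC and HDC held 0. The word GAGGAA of the factor PU.1 was searched too and matched in 3 of the 6 windows, where 27.6% of all promoters hold it. CLC and CPA3 were chosen for display by their GATA words. A match is only a description of the letters in the window.

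The libraries were first checked against their labels. Total counts ran from 9314584 to 10868396 in the CIP-labelled libraries and from 8143657 to 9759687 in the DMSO-labelled ones. HL-60 is known for abundant myeloperoxidase (MPO) and for extra copies of MYC, a growth transcription factor. MPO had 77887, 82824 and 84917 counts with the CIP label, against 15, 9 and 9 counts with the DMSO label. MYC stood at 269.7, 336.0 and 233.0 CPM (the depth-scaled count, here with TMM factors) with the CIP label and at 46.3, 39.6 and 39.4 CPM with the DMSO label. In MPO and MYC the DMSO-labelled libraries therefore go against what is known of HL-60. Other promyelocyte genes listed as HL-60 markers were read under both labels. Mean ELANE stood at 332.2 CPM with the CIP label and at 591.0 CPM with the DMSO label. AZU1 stood at 25.2 and 44.1 CPM, and PRTN3 at 425.0 and 286.4 CPM, in the same order. The groups are named by their labels throughout. Every result below compares these libraries, and CIP exposure and any other difference between the cultures cannot be told apart.

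The granule genes did not move as a block. PRG2, EPX and CLC rose with the CIP label, RNASE2, RNASE3 and TPSAB1 fell, and PRG3, TPSB2, CPA3 and HDC had too few reads to be tested (edgeR's quasi-likelihood test over 12844 genes, called at an adjusted p under 0.05). So 3 of the 6 tested genes were called higher, where 34.9% of all tested genes were, and 3 of the 6 were called lower, where 38.2% were. In either direction 73.1% of all tested genes were called. PRG2, EPX, CLC and TPSAB1 passed the filter on low counts only through the group in which they are high, so the count of calls is a description. Of the called genes 47.7% were higher, and 36.9% with library totals as the only scaling. The plot of the granule genes by library shows the sizes.

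**Figure D1:**
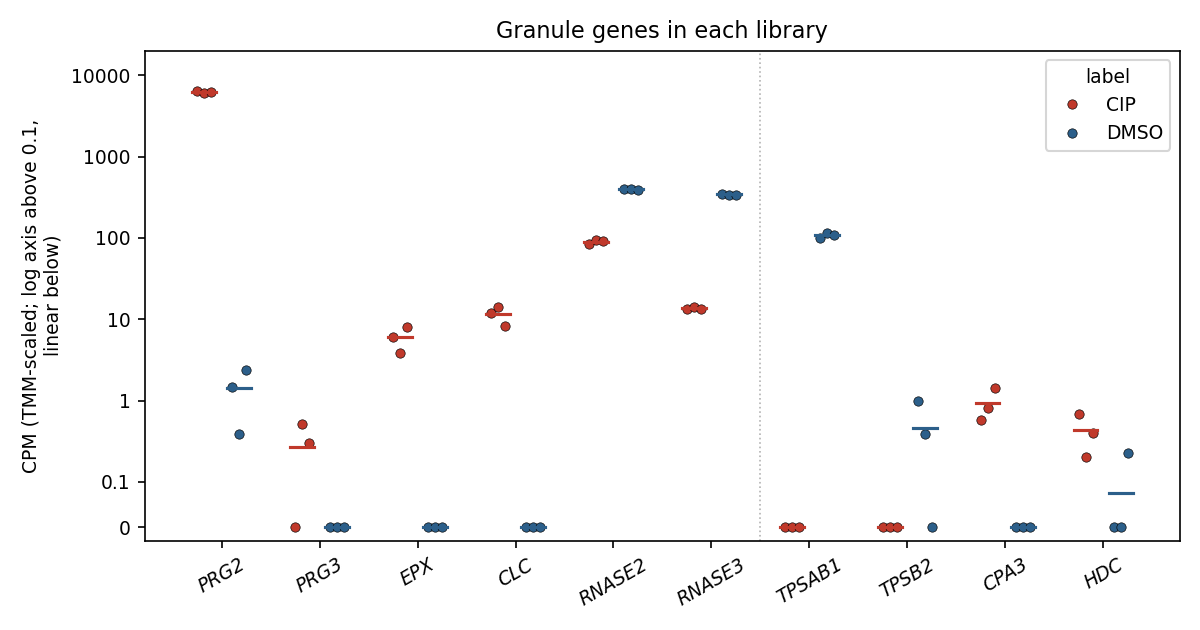
Level of each granule gene in each library, in CPM (TMM-scaled), CIP-labelled libraries left and DMSO-labelled libraries right of each pair, with a line at the mean of 3 libraries. The axis is logarithmic above 0.1 CPM and linear below, and the dotted line parts eosinophil genes from mast cell and basophil genes. PRG2 stood near 6237 CPM with the CIP label and at 1.41 CPM with the DMSO label, while TPSAB1 stood at 0 with the CIP label and at 107.9 CPM with the DMSO label.

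Among the core and matrix proteins of the eosinophil granule, PRG2 (chromosome 11, 57386780 to 57390650, GRCh38) had 55955, 59840 and 60956 counts with the CIP label, against 15, 4 and 21 counts with the DMSO label. That is 6458, 6116 and 6136 CPM with the CIP label against 1.48, 0.383 and 2.37 CPM with the DMSO label, so every CIP-labelled library lay far above every DMSO-labelled one. All CIP-labelled libraries lay above all DMSO-labelled ones for 36.1% of tested genes. The log2 fold change of PRG2 was 12.15 ± 0.17 (SE, edgeR adjusted p = 2.45e-19), and PRG2 had reads in all 6 libraries. From summed scaled counts the ratio was 4581 (exact 95% interval 3364 to 6412, counting error only). The few reads with the DMSO label were uneven, with exact 95% intervals of 8.40 to 24.7, 1.09 to 10.2 and 13.0 to 32.1 for the counts of replicates 1 to 3. They amount to 0.0226% of the CIP-labelled PRG2 counts, and for MPO that share was 0.0134%. Among the 103 genes called higher that reached 1000 CPM with the CIP label, these were the lowest shares, and the next lowest was 18.5%. Where those reads come from was not tested.

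PRG3 (chromosome 11, 57376769 to 57381150), a close homologue of major basic protein that lies 5630 bases from PRG2, had 0, 5 and 3 counts with the CIP label and 0 counts in all DMSO-labelled libraries. The groups overlap at 0, and it was too low to be tested. The last 300 bases of the PRG2 and PRG3 transcripts (GENCODE 29) share no run of 50 bases, so reads of that length from PRG2 do not match PRG3 there.

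EPX (chromosome 17, 58192726 to 58205174), the haloperoxidase that sets eosinophils apart, had 53, 38 and 79 counts with the CIP label and 0 counts in each DMSO-labelled library. In CPM this was 5.98 ± 2.04 (SD, n = 3) with the CIP label. Against 3 counts over the DMSO-labelled group EPX was at least 58.7-fold higher (edgeR adjusted p = 1.45e-10). CLC (chromosome 19, 39731255 to 39738029) had 103, 138 and 83 counts with the CIP label and 0 in each DMSO-labelled library. Its level was 11.4 ± 2.90 CPM (SD, n = 3) with the CIP label, and it was at least 112.3-fold higher (edgeR adjusted p = 4.38e-14). Reads of both genes came from the CIP-labelled libraries only. A share of DMSO-labelled reads as small as that of PRG2 would have given 0.0385 counts of EPX and 0.0733 of CLC, so such a share could not have been seen at this depth.

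EPX and CLC did not follow each other from one CIP-labelled library to the next. There were 194, 363 and 105 CLC reads per 100 EPX reads in replicates 1 to 3. The CV over the 3 libraries was 34.1% for EPX and 25.3% for CLC, against 13.3% and 9.62% from counting alone. PRG2 and MPO kept a steady ratio in the same libraries, with 139, 138 and 139 MPO reads per 100 PRG2 reads. The CV of PRG2 was 3.08%, against 0.412% from counting alone, so PRG2 too varied more than counting gives.

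**Figure D2:**
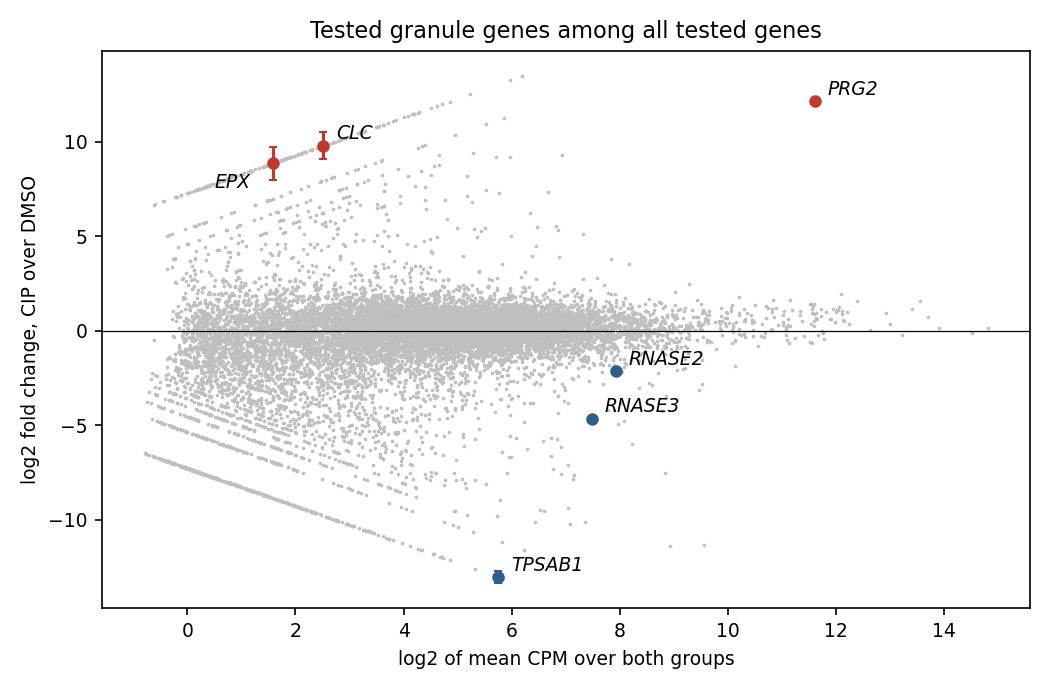
Log2 fold change (CIP over DMSO) against the log2 mean CPM of both groups for the 12844 tested genes (grey) and the 6 tested granule genes (red higher and blue lower with the CIP label, bars the SE). PRG2 lies at 12.15 and TPSAB1 at -13.02, RNASE2 at -2.13. The straight grey edges are genes with 0 counts in one group, for which the fitted value depends on a prior count.

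The ribonucleases of the eosinophil granule matrix went the other way. RNASE2 (chromosome 14, 20955487 to 20956436) stood at 84.5, 93.7 and 92.4 CPM with the CIP label, against 396.5, 398.3 and 389.3 CPM with the DMSO label. RNASE3 (chromosome 14, 20891385 to 20892348) stood at 13.4, 14.1 and 13.2 CPM with the CIP label, against 348.0, 339.4 and 340.8 CPM with the DMSO label. Both genes were lower in every CIP-labelled library than in any DMSO-labelled one, as were 39.3% of tested genes. The log2 fold change was -2.13 ± 0.07 for RNASE2 (SE, edgeR adjusted p = 3.16e-24) and -4.66 ± 0.09 for RNASE3 (SE, edgeR adjusted p = 2.12e-31). These 2 genes were read in all 6 libraries, with at least 116 counts in each.

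RNASE3 fell further than its near copy. There were 15.8, 15.0 and 14.3 RNASE3 reads per 100 RNASE2 reads with the CIP label, against 87.8, 85.2 and 87.5 with the DMSO label. The log2 ratio of RNASE3 to RNASE2 averaged -2.73 ± 0.08 with the CIP label and -0.20 ± 0.02 with the DMSO label (SD, n = 3 each), a 5.77-fold difference. The groups did not overlap, and the 2-sided exact permutation test gave p = 0.10, the smallest that 3 against 3 libraries allow. The last 300 bases of the transcripts were 91.6% identical, and 1.2% of the 50-base stretches there, and 0% of the 75-base ones, also occur in the other transcript, so most reads could be assigned. RNASE2CP, a transcribed pseudogene of the family that lies between them, also fell, with 0.796 ± 0.293 CPM with the CIP label and 15.2 ± 1.48 CPM with the DMSO label (SD, n = 3 each). Its log2 fold change was -4.22 ± 0.31 (SE, edgeR adjusted p = 3.45e-14), and its reads may be shared with the genes it resembles.

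**Figure D3:**
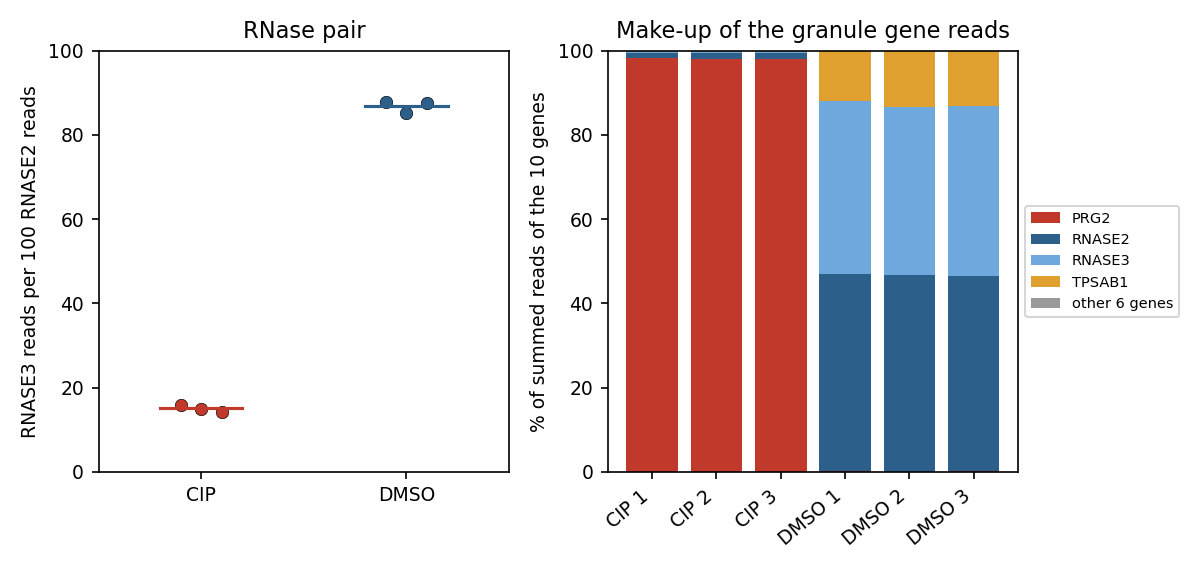
Left, RNASE3 reads per 100 RNASE2 reads in each library, with a line at the group mean. Right, the percentage of the summed reads of the 10 genes that each took in a library. RNASE3 ran at 14.3 to 15.8 per 100 with the CIP label and at 85.2 to 87.8 with the DMSO label, and PRG2 took 98.0% to 98.2% of the granule gene reads with the CIP label.

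Of the mast cell and basophil genes, TPSAB1 alone was abundant enough to be tested. TPSAB1 (chromosome 16, 1240705 to 1242554), which encodes alpha and beta tryptases, had 0 counts in each CIP-labelled library, against 1019, 1184 and 971 with the DMSO label. It stood at 107.9 ± 6.47 CPM (SD, n = 3) with the DMSO label and CIP-labelled libraries were at least 1021-fold lower (edgeR adjusted p = 1.93e-27). TPSB2 (chromosome 16, 1228336 to 1230184), the neighbouring beta tryptase gene, had 0 counts with the CIP label and 10, 4 and 0 with the DMSO label. Tryptase reads are uncertain as to their gene. The last 300 bases of the transcripts were 96.7% identical, with 37.8% of 50-base and 25.7% of 75-base stretches found in both. With the counts of the pair summed into 1 tryptase value, the log2 fold change was -13.03 (edgeR adjusted p = 1.75e-27).

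The remaining pair had reads mainly with the CIP label. CPA3 (chromosome 3, 148865296 to 148897203), the mast cell carboxypeptidase, had 5, 8 and 14 counts with the CIP label and 0 with the DMSO label. By mean CPM against 3 counts over the DMSO-labelled group, CPA3 was at least 9.17-fold higher, and it was not tested at this depth. HDC (chromosome 15, 50241947 to 50265726), the enzyme that makes histamine from histidine, had 6, 2 and 4 counts with the CIP label against 0, 0 and 2 with the DMSO label. The ratio of its summed scaled counts was 6.22 (exact 95% interval 1.39 to 57.2, counting error only), and the libraries overlapped. With all genes kept whatever their counts, CPA3 had an adjusted p of 5.51e-04 and TPSB2 one of 0.0256, while PRG3 (0.0823) and HDC (0.218) did not pass (edgeR). Tryptase and CPA3 thus had their reads under opposite labels, though CPA3 had only 27 counts in sum.

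The 10 genes together took 0.572% to 0.612% of all reads in a CIP-labelled library and 0.0912% to 0.0923% in a DMSO-labelled one. PRG2 took nearly all of these reads with the CIP label. With the DMSO label RNASE2 took 46.2% to 46.8%, RNASE3 39.8% to 41.0% and TPSAB1 11.9% to 13.3%. In bulk libraries, fewer cells that make a transcript and less of it per cell cannot be told apart.

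The receptor genes IL5RA, CCR3, SIGLEC8 and FCER1A had few reads in both groups. IL5RA, the interleukin-5 receptor chain of eosinophils, had 6 counts in sum with the CIP label and 0 with the DMSO label. The eosinophil receptors CCR3 and SIGLEC8 had 3 and 5 counts in sum with the CIP label, against 6 and 17 with the DMSO label. Of 14 eosinophil receptor and signalling genes 7 were tested, of which 2 rose, 2 fell and 3 did not pass. Beside this and each list below, 34.9% of all tested genes were called higher and 38.2% lower. CSF2RB, the chain shared by the receptors for interleukin-3, interleukin-5 and GM-CSF, rose to 11.3 ± 2.02 CPM with the CIP label, against 1.93 ± 1.30 CPM with the DMSO label (SD, n = 3 each). STAT5A, a transcription factor that acts below these receptors, fell to 3.10 ± 1.44 CPM with the CIP label, against 34.5 ± 2.49 CPM with the DMSO label. The median log2 fold change of the 7 was 0.28, beside -0.03 for all tested genes.

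Genes of mast cell and basophil signalling mostly fell, and KIT did not. KIT, the stem cell factor receptor, had 41.3, 43.1 and 42.1 CPM with the CIP label, against 0.890, 0.287 and 0.226 CPM with the DMSO label. On the log2 scale the change was 6.43 ± 0.26 (SE, edgeR adjusted p = 1.19e-21). FCER1A, the chain of the high-affinity IgE receptor that binds IgE, had 2 counts in sum with the CIP label and 0 with the DMSO label. MS4A2, the beta chain of that receptor, stood at 1.72 ± 0.766 CPM with the CIP label, against 3.44 ± 1.49 CPM with the DMSO label (SD, n = 3 each, edgeR adjusted p = 0.040). That call was lost without CIP replicate 2 or 3 (adjusted p = 0.0512 and 0.167), without DMSO replicate 2 (0.333) and with DESeq2 (0.0561). Of 14 such genes 11 were tested, of which 2 rose and 9 fell (median log2 fold change -1.01), where 34.9% and 38.2% of all tested genes did. Those that fell include the signalling proteins PLCG1 and GAB2 (log2 fold changes of -3.51 and -2.93).

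Transcription factors of these lineages differed widely. GATA2, which acts in mast cell and basophil precursors, stood at 89.1, 91.6 and 85.6 CPM with the CIP label, against 1.28, 1.91 and 2.94 CPM with the DMSO label (log2 fold change 5.46 ± 0.16, SE, edgeR adjusted p = 2.87e-25). GATA1, on which eosinophil formation depends in mice, had 3 counts in sum with the CIP label and 1 with the DMSO label. CEBPE, a factor of late granulocyte and eosinophil maturation, stood at 172.3, 158.2 and 140.4 CPM with the CIP label, against 10.2, 8.61 and 11.7 CPM with the DMSO label. CEBPD, a factor of the same family, had 445, 504 and 387 counts with the CIP label, against 0, 2 and 1 with the DMSO label. TRIB1, a pseudokinase that promotes the breakdown of C/EBPα, rose to 203.3 ± 16.0 CPM with the CIP label, against 1.28 ± 0.472 CPM with the DMSO label (SD, n = 3 each). CEBPA, the gene of C/EBPα, also rose, to 395.3 ± 30.9 CPM against 139.6 ± 10.1 CPM (SD, n = 3 each). IRF8, a factor of the monocyte line that is known to restrain neutrophil fate, had 0 counts with the CIP label and 489, 460 and 445 with the DMSO label. MITF, a mast cell factor, stood at 6.92 ± 2.06 CPM with the CIP label, against 8.42 ± 2.92 CPM with the DMSO label, and did not pass (edgeR adjusted p = 0.371). Of 24 factors 22 were tested, of which 12 rose and 7 fell, while 3 missed the threshold (their median change was 0.82 on the log2 scale).

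**Figure D4:**
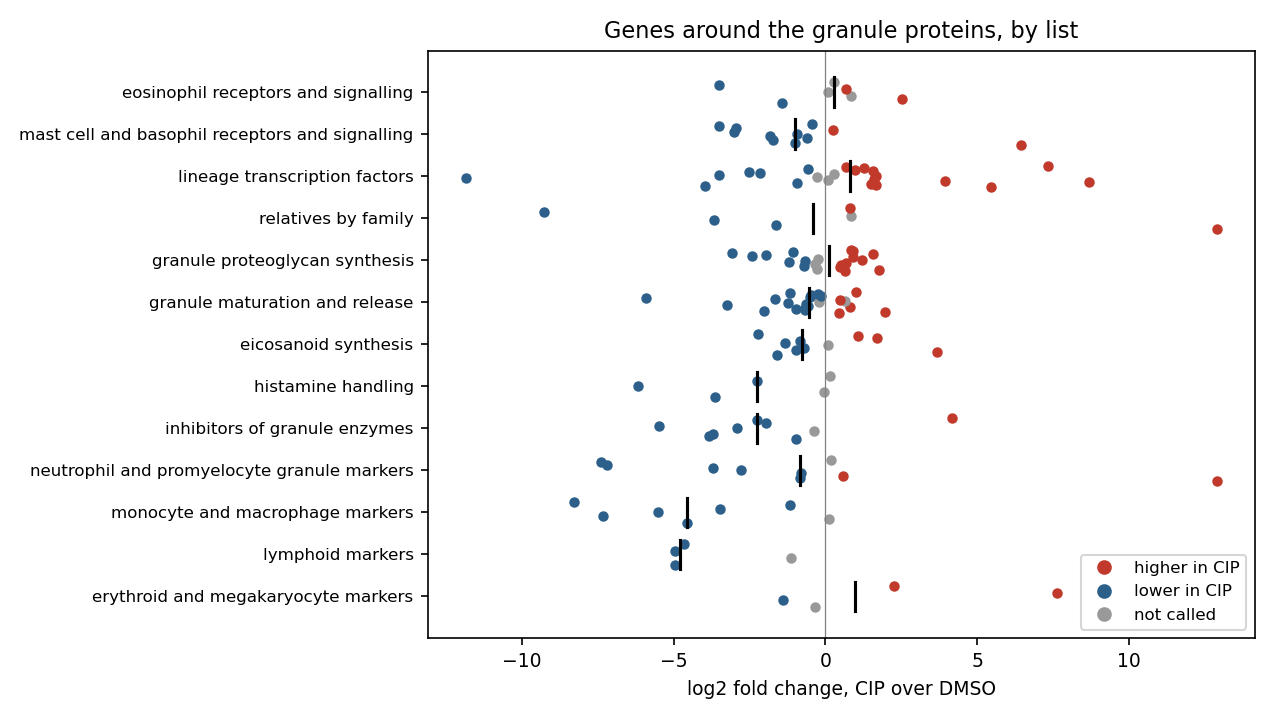
Log2 fold change (CIP over DMSO) of each tested gene in 13 lists of genes around the granule proteins and of markers of other cell types, with a black line at each list's median. Red points were called higher with the CIP label, blue points lower, and grey points were not called. Inhibitors of granule enzymes have a median of -2.26 and lineage transcription factors one of 0.82.

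Many members of the same protein families had no reads. Of 31 relatives (other haem peroxidases, RNase A family members, tryptases, carboxypeptidases, galectins and amino acid decarboxylases), 15 had 0 counts in all libraries and 6 were tested, of which 2 rose, 3 fell and 1 missed the threshold (median -0.40 on the log2 scale). MPO rose by 12.90 ± 0.12 on the log2 scale (SE, edgeR adjusted p = 9.3e-41). GAD1, a glutamate decarboxylase, had 0 counts with the CIP label and 94, 101 and 40 with the DMSO label. RNASE4, another ribonuclease, fell (log2 fold change -3.68).

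Serglycin, the proteoglycan core on which granule proteins are stored (SRGN), rose to 931.7 ± 21.5 CPM with the CIP label, against 599.2 ± 24.8 CPM with the DMSO label (SD, n = 3 each). Of 24 genes for serglycin and its sugar chains 20 were tested, of which 10 rose, 7 fell and 3 did not pass (median 0.13). The xylosyltransferase XYLT1, which starts the chains, rose (log2 fold change 1.76). Among genes that build chondroitin, CHPF2 rose while CHSY1 and CHPF fell (log2 fold changes of 1.56, -2.41 and -1.97). Of 23 granule maturation and release genes 22 were tested, and 15 fell, 5 rose and 2 did not pass (median -0.55). Over all tested genes 38.2% fell and 34.9% rose by the same test. LYST, which shapes granule size, fell to 227.9 ± 3.71 CPM with the CIP label, against 922.9 ± 29.6 CPM with the DMSO label (SD, n = 3 each). RAB27B, a GTPase of granule release, had 3 counts in sum with the CIP label and 206 with the DMSO label, and its relative RAB27A fell with a log2 fold change of -1.67.

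Inhibitors of granule enzymes fell in 7 of 9 tested cases, with 1 higher and 1 not past the test (median -2.26). Over all tested genes 38.2% were called lower and 34.9% higher. RNH1, the cytosolic inhibitor of RNase A family enzymes, fell to 162.4 ± 10.5 CPM with the CIP label, against 315.3 ± 15.9 CPM with the DMSO label (SD, n = 3 each). SERPINB1, SERPINB6 and SLPI, inhibitors of serine proteases, had log2 fold changes of -3.83, -3.69 and -5.49. Of 16 eicosanoid genes 10 were tested, of which 3 rose, 6 fell and 1 did not pass (median -0.76). TBXAS1, the thromboxane synthase, and PTGS1, a cyclooxygenase, fell (log2 fold changes of -2.23 and -1.33), and PTGES2, a prostaglandin E synthase, rose (1.69). HPGDS, the prostaglandin D synthase of mast cells, had 10 counts with the CIP label and 0 with the DMSO label. Of 11 histamine handling genes 5 were tested, of which 0 rose and 3 fell. HNMT, which methylates histamine, stood at 1.62, 0.613 and 1.91 CPM with the CIP label, against 19.7, 17.7 and 14.1 CPM with the DMSO label. SLC18A2, the transporter that loads histamine into granules, had 0 counts with the CIP label and 7, 0 and 0 with the DMSO label, all in 1 library. HRH4, a histamine receptor, had 18, 10 and 6 counts with the CIP label and 0 in each DMSO-labelled library, and was not tested.

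Markers of other cell types moved with the labels too, as did most tested genes (34.9% called higher and 38.2% lower). Of 12 neutrophil and promyelocyte granule markers 9 were tested, of which 2 rose (MPO and PRTN3), 6 fell and MS4A3 did not pass. Their summed level was 9443 to 9978 CPM in the CIP-labelled libraries, most of it MPO, and 1860 to 1981 CPM in the DMSO-labelled ones, and LTF and CAMP were at 0 with the CIP label. Of 12 monocyte and macrophage markers 7 were tested and 6 fell, with a summed level of 21.1 to 28.8 CPM with the CIP label and 273.5 to 288.6 CPM with the DMSO label. Among those at 0, CD163 and FCGR3A had 0 counts throughout and CD14 had 0 with the DMSO label. Of 12 lymphoid markers 4 were tested and 3 fell (in sum 4.03 to 5.52 CPM with the CIP label and 87.8 to 107.8 CPM with the DMSO label), with MS4A1 and CD7 at 0 throughout and CD3D, CD3E and CD3G at 0 with the DMSO label. Of 13 erythroid and megakaryocyte markers 4 were tested, of which 2 rose and 1 fell (in sum 87.3 to 101.0 CPM with the CIP label and 23.9 to 29.1 CPM with the DMSO label), with HBG1, HBG2, ALAS2, PF4, PPBP and GP9 at 0 throughout and ITGA2B at 0 with the DMSO label. Their part in the granule gene results was not tested.

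Neighbouring genes were read to see whether the changes extended along the chromosome. Within 100000 bases of a granule gene 21 other genes were tested, of which 11 were called higher, 6 lower and 4 not. Over all tested genes 34.9% were called higher and 38.2% lower, 73.1% in either direction, so the count is a description. Beside PRG2, SLC43A3 (log2 fold change 1.03 ± 0.07), an amino acid transporter family member, rose, TNKS1BP1 was called higher (0.75 ± 0.24), RTN4RL2 fell (-1.88 ± 0.49), and SSRP1 (0.03 ± 0.06) and SLC43A1 (0.10 ± 0.09) did not pass (SE, edgeR). The call of TNKS1BP1 was lost without CIP replicate 1 or DMSO replicate 2 (edgeR adjusted p = 0.0524 and 0.0616). P2RX3, which lies 4373 bases from PRG3, had 0 counts throughout. All 4 tested neighbours of EPX rose. They were MPO, which lies 64681 bases away, TSPOAP1 (6.61 ± 0.35), MKS1 (1.00 ± 0.22) and DYNLL2 (0.86 ± 0.09), while LPO, the lactoperoxidase gene between EPX and MPO, had 2 counts with the CIP label and 0 with the DMSO label.

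Around CLC the galectin genes LGALS14 and LGALS16 had 0 counts throughout, and FBL rose (0.65 ± 0.06, SE). Beside the ribonucleases METTL17 rose (0.95 ± 0.10, SE) although RNASE2, RNASE3 and RNASE2CP fell. Beside the tryptases TPSD1 and TPSG1, further tryptase genes, had 1 count each with the DMSO label and 0 with the CIP label. Around HDC, ATP8B4, GABPB1-AS1 and GABPB1-IT1 fell, SLC27A2 rose, and GABPB1 did not pass. Beside CPA3, GYG1 fell (-0.41 ± 0.11, SE) and CPB1 had 0 counts.

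**Figure D5:**
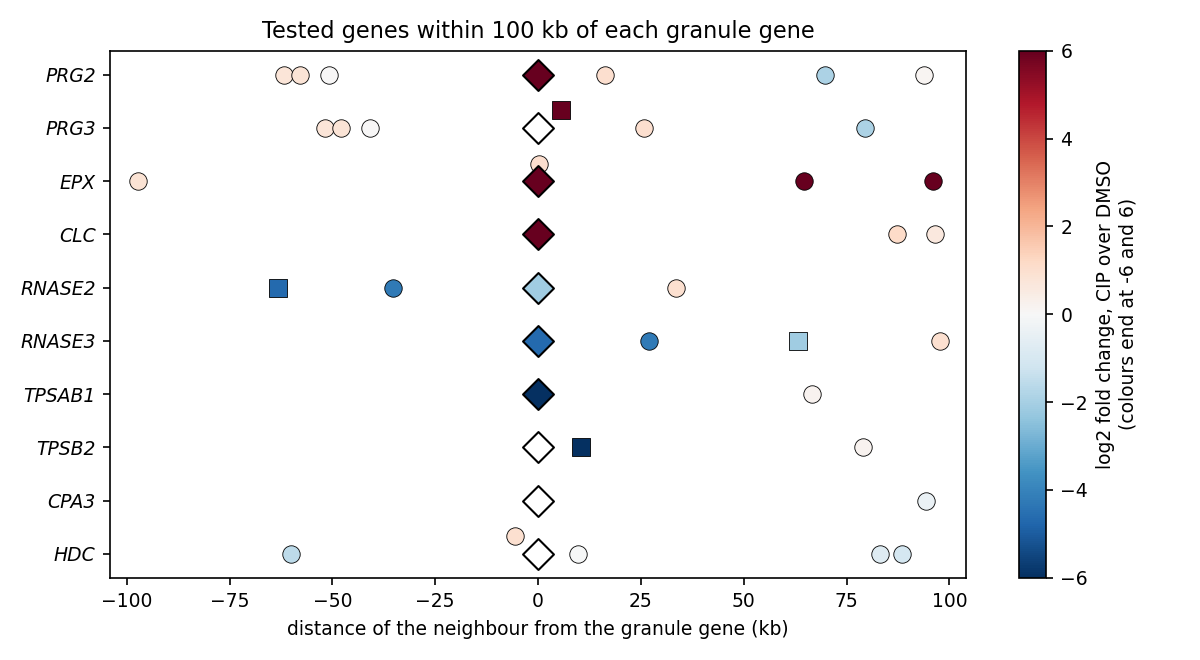
Tested genes within 100 kb of each granule gene, placed by distance (kb) from the granule gene, which is the diamond at 0 (white where it was not tested), with other granule genes as squares. Colour gives the log2 fold change, CIP over DMSO, and a neighbour under 8 kb away is drawn slightly raised. Near EPX both dark points are MPO and TSPOAP1, and near PRG2 the neighbours lie between -1.88 and 1.03.

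Annotation limits some of these values. In GENCODE 29 the antisense genes AC005962.1 and AC092979.1 overlap EPX and CPA3, and AP000781.2 overlaps PRG2 on its own strand. The strand setting of the counting is not known here, so reads of such partners cannot be told apart.

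Finally, genes whose course over the 6 libraries was nearest to that of each tested granule gene were taken by the root mean square difference of centred log2 CPM (prior count 2). Nearest to PRG2 was MPO (0.62), well ahead of SVIP and ANKRD18A (1.49 each). TPSAB1 lay nearest to MEIS1, a homeobox factor of progenitor cells (0.03), which had 0 counts with the CIP label and 3193 with the DMSO label. EPX lay nearest to ZNF600 and PTH2R (0.08 and 0.11), CLC to LRRC26 and ZNF788P (0.15 and 0.17), and RNASE2 to UBE2Q2P1 and IVD (0.03 and 0.05). RNASE3 lay nearest to NRBP2 and LZTS1 (0.07 and 0.08). Of these genes MPO, UBE2Q2P1 and IVD had reads in both groups. The others had 0 counts in one group, so their distances depend on the prior count. With 2 groups this measure mainly reads the size of the difference between labels.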

How the data were processed

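Gene expression was measured in 6 libraries labelled HL-60, grouped by their titles as CIP (3) and DMSO (3). The authors deposited raw read counts (whole numbers, 1 row per symbol), and nothing in them points to scaling. The libraries were made from total RNA with a Lexogen QuantSeq kit, per the labels' protocols. The submitters' processing notes name the build GRCh38 and the tools HTSeq, STAR, fastp and bcl2fastq 2.20.0.422. The annotation, strand setting, handling of reads with several matches and use of molecular identifiers were not given in these sources. Intervals and floors thus hold for counting error alone. QuantSeq gives about 1 read per transcript end, so genes with similar 3' ends can be miscounted. CPM were computed here from counts and TMM-scaled totals (factors 0.914 to 0.930 for CIP, 1.07 to 1.09 for DMSO), and 3 counts equal 0.302 to 0.346 CPM in a CIP-labelled library and 0.287 to 0.339 in a DMSO-labelled one.

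Genes were tested with edgeR 4.0.16 (R 4.3.3, filterByExpr, TMM, robust quasi-likelihood test, 2-sided, Benjamini-Hochberg adjustment over 12844 genes), with group alone in the design. The steps were tested on simulated data with fewer and smaller changes than here. That test does not cover changes as large as those of PRG2 or TPSAB1. The SE is the log2 fold change divided by the square root of F. Where a group had 0 counts, 3 counts in the group's sum stood in for it and the fold is a bound (0.106 CPM for CIP, 0.102 for DMSO). An exact permutation test of 3 against 3 cannot go below p = 0.10. Within a group, chi-square per gene between libraries was 3.89 to 8.02, above sampling noise, and none was taken as a duplicate. Positions and promoters come from RefSeq GRCh38.p14, matched by symbol (42739 symbols), and transcript ends from GENCODE 29.

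The genes and the 13 lists were chosen with earlier results of these data known, so list counts are descriptions. Named genes were the 10 granule genes, up to 4 called genes of each list with the largest changes and at least 5 CPM, a set of defining receptors and factors, tested neighbours within 100000 bases, and the 3 genes nearest in course. The text gives a part of these. Other genes named from the lists (RNASE4, SRGN, RNH1, HPGDS, SLC18A2, HRH4, ELANE, AZU1, PRTN3, MS4A3 and markers at 0), and neighbours too low to be tested, were chosen after their values were seen. Alternatives were other scalings (RLE, upper quartile, totals only), no filter, 1 CPM in 3 libraries, DESeq2 1.42.0, limma-voom (limma 3.58.1), the replicate block, each library left out, and summed counts of near copies. Some marker genes are not reported here by name.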

Additional observations from a re-analysis of the deposited data

How the results depend on the processing

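The calls of PRG2, EPX, CLC, RNASE2, RNASE3 and TPSAB1 kept their direction and passed the threshold under every alternative run in which each was tested, with log2 fold changes of 11.66 to 12.69, 6.82 to 9.09, 7.78 to 9.97, -2.83 to -2.07, -4.89 to -2.83 and -13.14 to -10.99. The RNase and tryptase ranges include summed counts of each pair. With no filter, 4 of the 10 were called higher (CPA3 added) and 4 lower (TPSB2 added), where 21.5% and 24.8% of all 22384 genes were. Library totals alone moved the median log2 fold change of all genes to -0.26, against -0.03, and left 1 higher gene each among eosinophil receptors, mast cell and basophil receptors and family relatives, where 2 had been called. With no filter 4 eosinophil receptor genes and 1 histamine handling gene were called higher, against 2 and 0. Same-numbered libraries did not deviate together (correlations -0.0271 to -0.00992), and no library correlated best with its own number. With the replicate block 9061 genes were called, against 9394 without it, and the calls of the granule genes were as before. Among the other named genes, chosen for this step after seeing the data, SSRP1 turned to -0.20 with library totals alone, MS4A2 lost its call with the replicate block (adjusted p = 0.078), and TNKS1BP1 with library totals alone (0.0502). MS4A3 gained a call as higher with no filter (edgeR adjusted p = 0.0497) and without CIP replicate 2 (0.00853). Low counts limit PRG3, TPSB2, CPA3 and HDC.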
